A study of Homo sapiens with 12 samples.

Results

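The 10 genes described here encode feedback inhibitors of the RAS-ERK pathway, namely the Sprouty genes SPRY2 and SPRY4, the SPRED genes SPRED1 and SPRED2, the receptor-level inhibitors IL17RD and ERRFI1, the dual-specificity phosphatases DUSP4, DUSP5 and DUSP6, and PHLDA1. They were listed by name and each matched 1 of the 20345 rows of the expression table by Ensembl identifier. Of the 10 genes, 6 had a mean of at least 1 FPKM (fragment number divided by the length of the transcript and by the mapped total of the library) over all libraries and entered the fit. The other 4, SPRY4, DUSP4, DUSP5 and DUSP6, did not. The members were chosen by name, with earlier results of these libraries known, among them the GLUP differences in FPKM, so their response to treatment is given below as a description and supports nothing by itself.

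Growth factor receptors switch on RAS, which passes the signal through RAF and MEK to the kinase ERK. Active ERK induces transcription of its own inhibitors. Sprouty and SPRED proteins act on the steps at RAS and RAF, IL17RD and ERRFI1 act on receptors and nearby steps, and DUSP4, DUSP5 and DUSP6 remove phosphate from ERK, so that transcripts of this group are widely read as an output of ERK signalling.

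RNA was sequenced from HGC-27, a human gastric cancer cell line, in 12 libraries that form 4 groups of 3. The groups were wild-type cells without treatment (WT untreated), wild-type cells given GLUP (WT GLUP), and cells labelled TEAD4KO without treatment or given GLUP. GLUP is a cyclised peptide that carries the TEAD4-binding motif of the cofactor VGLL4 in tandem and was built to bring together molecules of TEAD4, the transcription factor through which YAP and TAZ act. Controls received the buffer of the peptide stock, the exposure time differs between passages of the study's text, and the sources used here do not say how the TEAD4KO cells were made or whether they are clonal. Untreated libraries carry the replicate numbers 1 to 3 and GLUP libraries 14 to 16, and nothing in the labels says that they came from separate cultures, so p-values measure the spread between these libraries only.

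Sequencing depth is unknown. TEAD4 itself was at 22.9 to 25.8 FPKM in WT libraries and at 26.0 to 30.1 FPKM in libraries labelled TEAD4KO, so the transcript was not lower under that label, and the groups are called by their labels throughout. The TEAD4 label difference in log2(FPKM + 1) was 0.17 ± 0.063 without GLUP and 0.23 ± 0.063 with GLUP, and the latter passed as higher (SE, limma adjusted p = 0.135 and 0.0479). With a correction of every library for GC content and length of the transcripts, it was -0.020 ± 0.056 without GLUP and 0.074 ± 0.056 with GLUP (log2, SE). The FPKM total of a library was 375361 to 384477 in WT and 397321 to 423757 under the TEAD4KO label, and the share of rows listed at 0 was 21.1% to 22.3% and 23.7% to 25.5%. On the first principal component, which held 39.7% of the variance, WT libraries lay between -16.2 and -3.71 and the other libraries labelled TEAD4KO at 9.91 to 19.8, but untreated replicate 1 lay at -0.962 and GLUP replicate 16 at -5.26. These 2 libraries stand apart from their label, and results that rest on them are also given without them. Of the defining markers, the gastric lineage genes reached 1 FPKM in 0 of 6 cases, with TFF1, TFF2 and GKN1 listed at 0 in every library. The epithelial markers were mixed. EPCAM was at most 0.169 FPKM, KRT18 at most 0.29 FPKM and KRT19 at most 0.0459 FPKM. KRT8 was at 3.78 to 9.13 FPKM, CDH1 at 2.04 to 3.68 FPKM and KRT7 at a mean of 2.69 FPKM. Among the mesenchymal genes VIM was at 1240 to 1700 FPKM, ZEB1 at 15.9 to 23.3 FPKM and FN1 at 3.85 to 9.15 FPKM, but CDH2 was at most 0.149 FPKM. All 5 fibroblast markers were above 1 FPKM on average, with COL3A1 at 300 to 359 FPKM, whereas 0 of 3 endothelial markers were.

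Expressed per transcript length, the levels of the 10 genes spanned a wide range. ERRFI1, which encodes MIG6, an inhibitor that binds the EGFR kinase domain, was the highest at a mean of 18.6 FPKM over the 12 libraries, followed by SPRED2 at 14.2 FPKM. SPRED1 and SPRY2 were at 4.51 and 4.49 FPKM, and PHLDA1 and IL17RD at 2.89 and 2.83 FPKM. SPRY4 was at 0.898 FPKM, DUSP6 at 0.43 FPKM and DUSP4 at 0.208 FPKM, and DUSP5 was listed at 0 in 9 of 12 libraries. The phosphatase members, which act on ERK itself, were thus the lowest of the list in these cells.

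**Figure D1:**
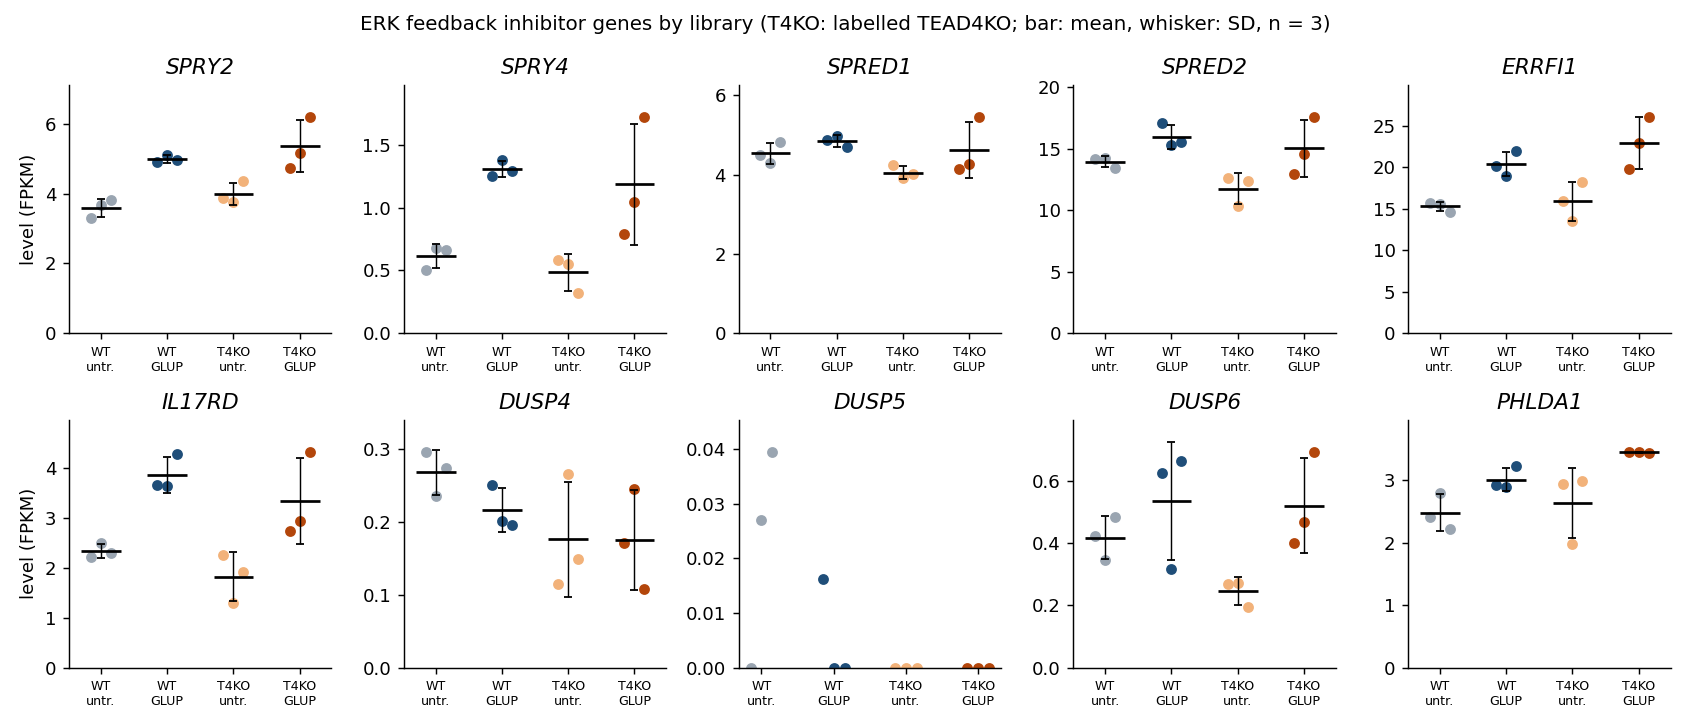
Level of each of the 10 genes in FPKM (vertical axes, each from 0) by library in the 4 groups; points are libraries, bars the mean and whiskers the SD of 3 libraries, with no mean drawn for DUSP5, which is listed at 0 in 9 of 12 libraries. SPRY2, SPRY4, SPRED2, ERRFI1, IL17RD and PHLDA1 were higher in every GLUP library than in every untreated library of the same genotype, whereas DUSP4 and SPRED1 overlapped.

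SPRY2 and SPRY4 encode Sprouty proteins, which are induced by growth factors and hold back signalling between the receptor and RAF. For the 4 genes with the largest GLUP differences, the 250 bases before the start annotated by RefSeq are printed here. These 4 were picked by that size, and whether they share a regulator was not tested. Capitals mark the letters of motifs searched on both strands, CCGGAA (an ETS core) and TGACG (the core of a CRE). For SPRY2 and IL17RD, which have several annotated starts, the most upstream is shown. The build is GRCh38.p14, and all 4 lie on the minus strand, at chr13:80341127-80341376 (SPRY2), chr5:142324248-142324497 (SPRY4), chr3:57170318-57170567 (IL17RD) and chr1:8026310-8026559 (ERRFI1).
SPRY2: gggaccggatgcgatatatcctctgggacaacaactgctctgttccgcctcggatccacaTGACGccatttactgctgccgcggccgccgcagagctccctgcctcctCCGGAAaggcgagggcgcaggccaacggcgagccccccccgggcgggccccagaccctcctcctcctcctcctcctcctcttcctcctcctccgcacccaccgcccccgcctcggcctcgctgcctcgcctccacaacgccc
SPRY4: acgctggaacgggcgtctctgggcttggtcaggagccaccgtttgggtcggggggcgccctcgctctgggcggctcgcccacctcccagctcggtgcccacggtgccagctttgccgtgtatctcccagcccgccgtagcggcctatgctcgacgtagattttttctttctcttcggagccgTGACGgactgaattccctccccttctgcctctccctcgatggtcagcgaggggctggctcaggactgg
IL17RD: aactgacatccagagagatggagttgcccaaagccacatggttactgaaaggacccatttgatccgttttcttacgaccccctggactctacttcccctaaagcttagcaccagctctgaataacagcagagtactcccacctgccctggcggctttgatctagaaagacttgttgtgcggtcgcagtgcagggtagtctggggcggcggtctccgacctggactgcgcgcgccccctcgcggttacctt
ERRFI1: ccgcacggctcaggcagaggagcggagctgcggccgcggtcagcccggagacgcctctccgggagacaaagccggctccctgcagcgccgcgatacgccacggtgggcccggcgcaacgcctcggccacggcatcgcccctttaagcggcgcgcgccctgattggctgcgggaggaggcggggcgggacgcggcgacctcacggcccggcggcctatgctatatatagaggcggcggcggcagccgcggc
The SPRY2 window held TGACG with its first base 190 bases before the start and CCGGAA with its first base 142 bases before it, both on the gene's strand. The SPRY4 window held TGACG, beginning 68 bases before the start. The IL17RD and ERRFI1 windows held none of the motifs searched. TGACG occurred in 21.2% and CCGGAA in 14.5% of all 35116 promoters of that length. Over the 12 promoters of 8 members, PHLDA1 was the only other with a match, CCGGAA on the opposite strand. The letters of an AP-1 site (TGANTCA, in 6.57% of all promoters) and of a TEAD site (CATTCC, in 11.9%) were in none of the 12 windows. No entry was matched for DUSP4 and DUSP5.

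SPRY2 (ENSG00000136158, GRCh37 chromosome 13, 80910111 to 80915261, minus strand) measured 3.31, 3.67 and 3.8 FPKM in the WT untreated group and 4.91, 5.12 and 4.97 FPKM after GLUP. The TEAD4KO groups gave 3.88, 3.75 and 4.36 FPKM without and 4.74, 5.17 and 6.19 FPKM with the peptide. The GLUP libraries lay above the untreated ones in both genotypes without overlap, and the 2 genotypes overlapped within each treatment. Mean levels rank as WT untreated, TEAD4KO untreated, WT GLUP and TEAD4KO GLUP, and the only neighbours in that order that do not overlap are the second and the third. The difference in log2(FPKM + 1), the scale of all differences below, was 0.39 ± 0.10 with GLUP in WT and 0.34 ± 0.10 under the TEAD4KO label (SE, n = 3 per group).

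SPRY4 (ENSG00000187678, chromosome 5, 141689992 to 141706020, minus strand) was low, at 0.504, 0.678 and 0.663 FPKM in WT untreated and 1.25, 1.38 and 1.29 FPKM in WT GLUP libraries. Its levels under the TEAD4KO label were 0.586, 0.547 and 0.316 FPKM before and 0.787, 1.05 and 1.72 FPKM after treatment. The groups did not overlap in either genotype, and the ratio of group means was 2.12 in WT and 2.45 under the TEAD4KO label, the largest among members in both. Fitted without the filter on low rows, the difference was 0.52 ± 0.13 in WT and 0.54 ± 0.13 under the TEAD4KO label, and with a pseudocount of 0.1 in place of 1 it was 0.98 ± 0.28 and 1.11 ± 0.28 (SE). The pseudocount of 1 thus understates the change of a gene at this level, and the depth behind such values is not known.

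SPRED1 and SPRED2 encode membrane-bound relatives of Sprouty that bring the RAS-inactivating protein neurofibromin to the membrane. SPRED2 (ENSG00000198369, chromosome 2, 65537985 to 65659771, minus strand) stood at 14.2, 14.2 and 13.4 FPKM in WT untreated libraries and reached 17.1, 15.3 and 15.5 FPKM after GLUP. The TEAD4KO libraries gave 12.6, 10.3 and 12.3 FPKM without and 12.9, 14.6 and 17.5 FPKM with the peptide. The GLUP libraries were higher without overlap in both genotypes, by 0.18 ± 0.10 and 0.32 ± 0.10 (SE), and the 95% interval of the WT difference, -0.037 to 0.40, held 0. SPRED1 (ENSG00000166068, chromosome 15, 38545037 to 38649450, plus strand) moved least among the 6 genes fitted. It ranged from 4.3 to 4.81 FPKM in untreated WT libraries, from 4.68 to 4.97 FPKM in WT GLUP libraries, from 3.91 to 4.23 FPKM in untreated libraries labelled TEAD4KO and from 4.15 to 5.44 FPKM in those with GLUP. Treated and untreated libraries overlapped in both genotypes, with differences of 0.078 ± 0.094 and 0.15 ± 0.094 (SE).

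IL17RD, also called SEF, encodes a transmembrane protein that dampens FGF signalling and ERK. IL17RD (ENSG00000144730, chromosome 3, 57124010 to 57204334, minus strand) measured 2.21, 2.49 and 2.3 FPKM in WT untreated and 3.65, 3.64 and 4.28 FPKM in WT GLUP libraries. In cells labelled TEAD4KO the levels were 2.26, 1.29 and 1.91 FPKM before and 2.74, 2.93 and 4.31 FPKM after treatment. Treated libraries were above untreated libraries without overlap in both genotypes, at 1.65 and 1.83 times the untreated mean. The differences of 0.54 ± 0.15 and 0.62 ± 0.15 (SE) were the largest of the 6 genes fitted, and IL17RD ranked 8 of 11225 rows by its rise over both genotypes.

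ERRFI1 (ENSG00000116285, chromosome 1, 8064464 to 8086369, minus strand) stood at 15.6, 15.6 and 14.6 FPKM in WT untreated libraries and at 20.2, 19 and 21.9 FPKM after GLUP. The corresponding TEAD4KO levels were 16, 13.5 and 18.2 FPKM and 19.8, 22.9 and 26 FPKM. No treated library overlapped an untreated library of its genotype, and the differences were 0.39 ± 0.11 and 0.50 ± 0.11 (SE). Since this gene is the most highly expressed of the list, the change in FPKM was also the largest, 5.09 in WT and 7.03 under the TEAD4KO label.

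DUSP6 encodes a cytoplasmic phosphatase selective for ERK, and DUSP4 and DUSP5 encode nuclear relatives. DUSP6 (ENSG00000139318, chromosome 12, 89741012 to 89746278, minus strand) measured 0.423, 0.346 and 0.483 FPKM in WT untreated and 0.624, 0.318 and 0.665 FPKM in WT GLUP libraries. For TEAD4KO the levels were 0.27, 0.274 and 0.194 FPKM before and 0.401, 0.468 and 0.692 FPKM after treatment. WT libraries overlapped because WT GLUP replicate 15 was the lowest of the WT libraries, whereas libraries labelled TEAD4KO did not overlap and their means differed 2.12-fold. DUSP4 (ENSG00000120875, chromosome 8) was between 0.108 and 0.295 FPKM in all 12 libraries, and its treated and untreated libraries overlapped in both genotypes. DUSP5 (ENSG00000138166, chromosome 10, 112257665 to 112271291, plus strand) was listed above 0 only in WT untreated replicates 2 and 3, at 0.027 and 0.0394 FPKM, and in WT GLUP replicate 14, at 0.0162 FPKM. Neither DUSP4 nor DUSP5 was higher on average with GLUP in either genotype, and no fold is given for DUSP5.

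PHLDA1 encodes a pleckstrin homology-like protein that is induced by ERK signalling and can restrain receptor kinases. PHLDA1 (ENSG00000139289, chromosome 12, 76419227 to 76425556, minus strand) measured 2.41, 2.79 and 2.21 FPKM in WT untreated libraries and 2.91, 2.88 and 3.22 FPKM after GLUP. TEAD4KO libraries held 2.94, 1.98 and 2.98 FPKM without and 3.44, 3.44 and 3.43 FPKM with the peptide. The treated libraries were above the untreated ones without overlap in both genotypes, by 0.21 ± 0.12 and 0.30 ± 0.12 (SE). Without TEAD4KO untreated replicate 2 the latter was 0.17.

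Counted over the list, 6 of 10 members were higher without overlap in WT GLUP libraries (SPRY2, SPRY4, SPRED2, IL17RD, ERRFI1 and PHLDA1), where 10.2% of all rows tested were, and 0 were lower, as 7.16% of rows were. For the TEAD4KO label 7 of 10 were higher without overlap, the same 6 genes and DUSP6, against 2.85% of all rows, and 0 were lower, against 3.98%. In both genotypes at once it was 6 of 10, of which 5 were among the 6 genes fitted, against 0.998% of rows. Here and below, shares of rows that passed or did not overlap are of the 11225 rows fitted. These exclude the 4 members under 1 FPKM. The median difference of the 6 genes fitted was 0.30 in WT and 0.33 under the TEAD4KO label, beside medians of 0.0088 and -0.017 over all 11225 rows. These counts come from the treatment whose results were known when the list was made, and both genotypes' own values are given only side by side.

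Each treatment difference was also fitted gene by gene. With limma and Benjamini-Hochberg adjustment over all rows, 0 of 6 members passed an adjusted p of 0.05 for GLUP in WT, where 0.00891% of all rows passed, and 3 of 6 had an unadjusted p under 0.05, as 3.43% of rows did. With array weights, which let libraries differ in variance, SPRY2 (0.40), IL17RD (0.52) and ERRFI1 (0.36) passed in WT. That setting called 61 of 11225 rows in WT, in place of 1. For GLUP under the TEAD4KO label it was 0 of 6, where 0.0445% of rows passed, with 5 of 6 at an unadjusted p under 0.05, as 6.38% of rows were. When the treatment effect was averaged over both genotypes, 3 of 6 members passed, SPRY2 (0.37 ± 0.068), IL17RD (0.58 ± 0.10) and ERRFI1 (0.45 ± 0.077), all higher (SE, n = 6 per treatment), where 0.258% of all rows passed in either direction and 0.169% in the higher direction. An unadjusted p under 0.05 was found for 5 of 6 members and 7.14% of rows. None of the 3 reached a 2-fold change, as 0.00891% of rows did. Leaving out libraries one at a time removed all 3 calls in 8 of 12 fits, among them each fit without a WT library. Without the 2 libraries that stand apart, where 0.294% of rows passed, IL17RD passed (0.56 ± 0.081) while SPRY2 was at 0.31 ± 0.063 and ERRFI1 at 0.41 ± 0.077 (SE).

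**Figure D2:**
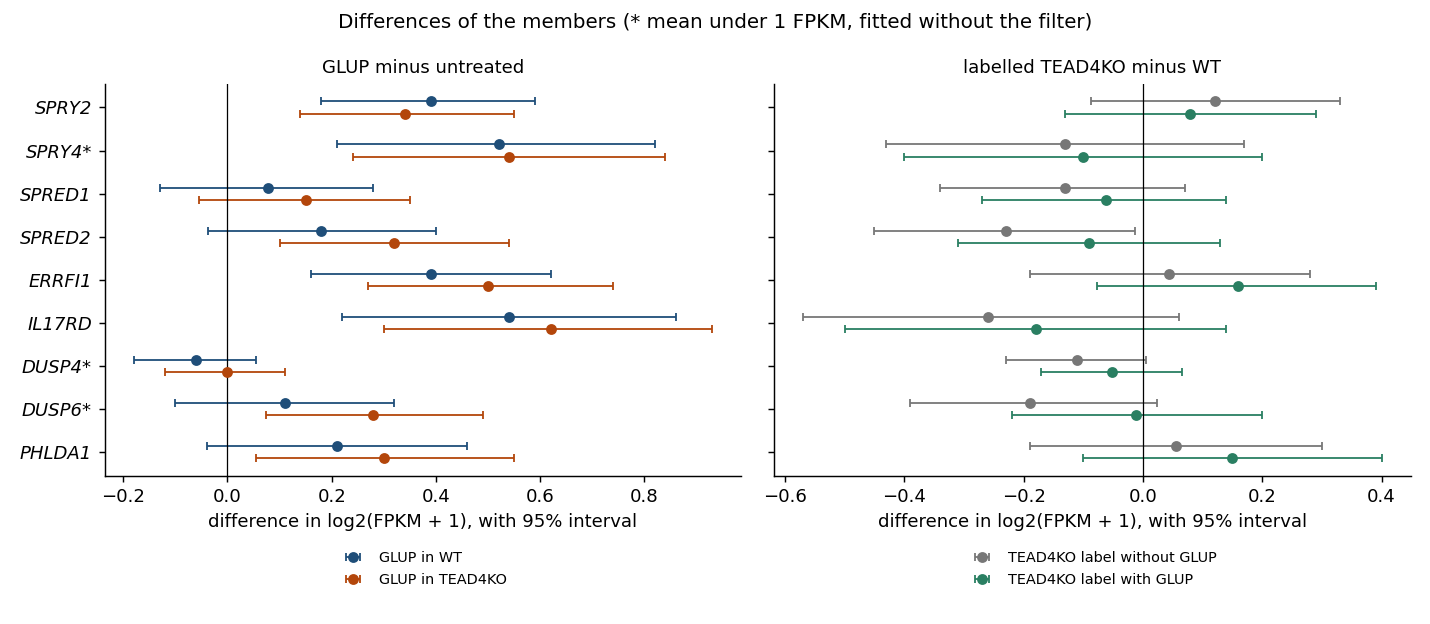
Differences in log2(FPKM + 1) with 95% intervals (horizontal axes) for 9 members, GLUP against untreated on the left and the TEAD4KO label against WT on the right; an asterisk marks members under 1 FPKM, fitted without the filter. In WT and under the TEAD4KO label the GLUP intervals of SPRY2, SPRY4, IL17RD and ERRFI1 lay above 0, while on the right 1 interval, that of SPRED2 without GLUP, excluded 0.

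Whether the members responded differently to GLUP under the TEAD4KO label was tested as the interaction, the GLUP difference under that label minus the GLUP difference in WT. With limma, 0 of 6 members passed, where 0.00891% of all rows did, and 0 of 6 had an unadjusted p under 0.05, as 2.53% of rows did. The interaction was -0.041 ± 0.14 for SPRY2 (95% interval -0.33 to 0.25), 0.075 ± 0.21 for IL17RD (-0.37 to 0.52) and 0.11 ± 0.15 for ERRFI1 (-0.22 to 0.44). For SPRED2 it was 0.14 ± 0.14 (-0.17 to 0.45) and for SPRY4, fitted without the filter, 0.026 ± 0.19 (-0.40 to 0.45). Each interval spans both signs, so neither the presence nor the direction of a difference in response could be told here.

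The label alone was compared next. Without GLUP, 3 of 10 members were lower without overlap under the TEAD4KO label, SPRED1, SPRED2 and DUSP6, where 7.47% of all rows were lower and 18.3% higher without overlap, and 0 members were higher. SPRED2 differed by -0.23 ± 0.10 and SPRED1 by -0.13 ± 0.094, with limma adjusted p = 0.202 and 0.447 (SE, n = 3 per group). Without TEAD4KO untreated replicate 2 the SPRED2 difference was -0.15, and with the GC and length correction that of SPRED1 was -0.068. DUSP6, at 0.194 to 0.274 FPKM against 0.346 to 0.483 FPKM in WT, differed by -0.19 ± 0.094 in the fit without the filter (limma adjusted p = 0.382). In all, 0 of 6 members passed, where 5.42% of all rows did, and 1 of 6, SPRED2, had an unadjusted p under 0.05, as 21.7% of rows did. The median member difference was -0.044 beside 0.023 over all rows. Without the 2 libraries that stand apart, SPRED2 (-0.28 ± 0.086, limma adjusted p = 0.0383) and IL17RD (-0.37 ± 0.11, limma adjusted p = 0.0424) passed as lower, where 19.9% of all rows passed. In all 12 libraries IL17RD was at -0.26 ± 0.15, without TEAD4KO untreated replicate 2 at -0.11, and with the GC and length correction at -0.15. The FPKM totals and shares of rows at 0 given above move with the label, and their part in these differences was not tested.

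With GLUP, PHLDA1 was the 1 of 10 members that was higher without overlap under the TEAD4KO label, at 3.43 to 3.44 FPKM against 2.88 to 3.22 FPKM in WT, where 16.7% of all rows were. It differed by 0.15 ± 0.12 (SE, limma adjusted p = 0.453), or by 0.23 with the GC and length correction (limma adjusted p = 0.19). No member was lower without overlap, where 12.9% of rows were. By limma 0 of 6 members passed, where 5.84% of all rows did, and 0 of 6 had an unadjusted p under 0.05, as 23.9% of rows did. The median member difference was 0.0085 beside -0.0039 over all rows. Without the 2 libraries that stand apart, IL17RD passed as lower (-0.34 ± 0.11, limma adjusted p = 0.0465), where 27.8% of all rows passed. In all 12 libraries it was at -0.18 ± 0.15, without TEAD4KO GLUP replicate 14 at -0.084, and with the GC and length correction at -0.047. With the replicate number as a block 0 of 6 members and 1064 rows passed, in place of 656 rows.

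Under the TEAD4KO label, several members also varied together between libraries of a group, chiefly in GLUP replicate 16 and untreated replicate 2. TEAD4KO GLUP replicate 16 had the highest value of all 12 libraries for 7 of 10 members, and TEAD4KO untreated replicate 2 the lowest for 5 of 10. DUSP4 had its lowest value, 0.108 FPKM, in that GLUP replicate 16. The share of all rows at such extremes is not given here. When each of the 6 genes fitted was centred and scaled over the libraries, the mean over the genes was 1.60 SD units in the former and -1.63 in the latter. The 3 untreated WT libraries lay between -0.63 and -0.43 and the WT GLUP libraries between 0.58 and 0.79. Single genes could differ within a WT library, as in WT untreated replicate 3, with SPRED1 at 0.70 and PHLDA1 at -1.41. TEAD4KO untreated replicates 1 and 3 were at -0.51 and -0.48, and TEAD4KO GLUP replicates 14 and 15 at 0.083 and 0.50. By this mean, WT libraries were thus closely spaced within each treatment. Libraries labelled TEAD4KO were spread more widely, with GLUP replicate 14 the nearest to the untreated ones. Leaving out GLUP replicate 16 brought the GLUP difference under the TEAD4KO label from 0.62 to 0.46 for IL17RD, from 0.34 to 0.25 for SPRY2, from 0.32 to 0.21 for SPRED2 and from 0.15 to 0.045 for SPRED1.

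**Figure D3:**
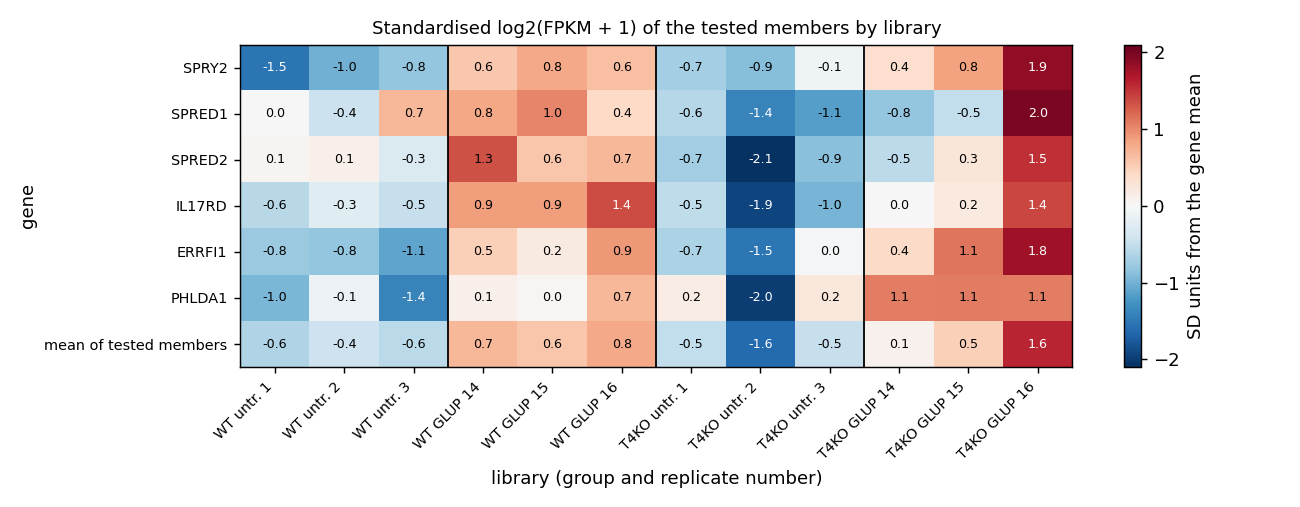
Each of the 6 members fitted, and their mean, in SD units from the gene's own mean of log2(FPKM + 1) over 12 libraries (colour and number); rows are genes and columns libraries, with lines between groups. The mean runs from -1.63 in TEAD4KO untreated replicate 2 to 1.60 in TEAD4KO GLUP replicate 16, and all 6 GLUP libraries lie above all 6 untreated libraries.

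The 5 genes outside the list whose levels followed this mean most closely over the 12 libraries were CD44 (Pearson's r = 0.948), a hyaluronan receptor, TRIB2 (0.926), a pseudokinase, ARID5B (0.923), a chromatin cofactor, NDNF (0.919), a secreted factor, and TGFB2 (0.917), a TGF-beta ligand. The r values are a description over 12 libraries that share 4 groups, and after group means were removed they were 0.959, 0.957, 0.711, 0.735 and 0.856. TGFB2 was at 11 to 12.2 FPKM in untreated and 15.1 to 16.5 FPKM in GLUP WT libraries, and at 11.2 to 13.1 FPKM and 15.9 to 18.2 FPKM under the TEAD4KO label. It was higher with GLUP without overlap in both genotypes, as were TRIB2, ARID5B and NDNF, where 0.998% of all rows were. CD44 was so in WT only and overlapped under the TEAD4KO label. These genes were picked by their correlation with a mean that was higher in GLUP libraries. Their own rise with GLUP is therefore part of that choice and supports nothing by itself.

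The other genes of the pathway were counted from lists that, like the members, were drawn up with earlier results known. Of 11 further Sprouty, SPRED and MAPK phosphatase genes 6 were tested, and 0 passed for GLUP over both genotypes, with 4 higher and 2 lower and a median difference of 0.11. DUSP9, a cytoplasmic ERK phosphatase, was higher under the TEAD4KO label without GLUP (6.23 to 8.51 FPKM against 4.88 to 5.71 FPKM; 0.39 ± 0.10, SE, limma adjusted p = 0.0421). That call held in 3 of 12 fits that omitted a library (limma adjusted p from 0.0231 to 0.2) and was lost with the GC and length correction (0.16, limma adjusted p = 0.458). With GLUP the label difference of DUSP9 was 0.073 ± 0.10. Of the cascade itself 17 genes were tested, among them the adaptor GRB2 and the kinase MAPK3, and 0 passed in any of the 6 comparisons. For GLUP over both genotypes 9 cascade genes were higher and 8 lower, with a median of 0.0076. Of 8 other brakes, such as the RAS-inactivating protein NF1 and the ubiquitin ligase CBL, 0 passed in any comparison, and their GLUP median was 0.021.

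Of 15 receptor kinases 11 were tested, with 4 higher and 7 lower with GLUP over both genotypes and a median difference of -0.025. FGFR2 and FGFR3, receptors for fibroblast growth factors, were at -0.33 and -0.29 without passing (limma adjusted p = 0.145 and 0.103). PDGFRA, the PDGF receptor alpha, passed as higher with GLUP over both genotypes (0.30 ± 0.053, SE, limma adjusted p = 0.0349). It was at 5.8 to 6.21 FPKM untreated and 6.72 to 7.43 FPKM with GLUP in WT, and at 5.1 to 5.66 FPKM and 6.98 to 7.39 FPKM under the TEAD4KO label, without overlap in either. The call held in 3 of 12 fits that omitted a library (limma adjusted p from 0.0274 to 0.139) and was lost without the 2 libraries that stand apart (0.30, limma adjusted p = 0.0527). INSR, the insulin receptor, was lower under the TEAD4KO label in GLUP libraries, at 0.956 to 1.36 FPKM against 1.71 to 2.19 FPKM (-0.46 ± 0.12, SE, limma adjusted p = 0.0353), a call that held in 6 of the 12 fits and was lost with the GC and length correction (-0.32, limma adjusted p = 0.0684).

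Of 14 further ERK-induced genes 13 were tested, and all 13 had a positive GLUP difference over both genotypes, where 47.6% of all rows did. Their median was 0.26 beside -0.0040 over all rows and 0.31 for the members, and the lowest was 0.0053. By genotype, 11 of 13 were positive in WT and 12 of 13 under the TEAD4KO label, where 53.9% and 43.1% of all rows were. ETV1 (0.57 ± 0.075, limma adjusted p = 0.00521) and ETV5 (0.51 ± 0.055, limma adjusted p = 0.00231), ETS factors that ERK induces, passed. ETV5 was at 12.3 to 13.8 FPKM untreated and 17.8 to 18.2 FPKM with GLUP in WT, and at 10.2 to 12.6 FPKM and 16.7 to 18.3 FPKM under the TEAD4KO label. ETV1 was at 6.38 to 6.87 FPKM and 7.71 to 10.1 FPKM in WT, and at 5.88 to 6.93 FPKM and 9.6 to 12 FPKM under the TEAD4KO label. Both calls held in all 12 fits that omitted a library (limma adjusted p up to 0.0239 for ETV1 and 0.0142 for ETV5). Within the TEAD4KO label alone ETV1 and ETV5 also passed (0.74 and 0.59, limma adjusted p = 0.027 and 0.019), but these calls held in 4 and 6 of the 12 fits and were lost without the 2 libraries that stand apart (0.67 and 0.55, limma adjusted p = 0.139 and 0.0929).

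The ERK-induced list was also compared between the TEAD4KO label and WT. Without GLUP, 2 of 13 passed as higher, PHLDA2 (0.45) and IER3 (0.33), and 0 as lower, where 5.42% of all rows passed in either direction. Those calls held in 12 and 10 of the 12 fits that omitted a library. Both were lost with the GC and length correction (0.18 and 0.14, limma adjusted p = 0.178 and 0.321). With GLUP, 2 of 13 passed as higher and 2 as lower, where 5.84% of all rows passed in either direction. FOS, an immediate early AP-1 factor, was at 21.8 to 28.8 FPKM against 36.8 to 46.6 FPKM in WT (-0.73 ± 0.12, SE, limma adjusted p = 0.00471). PHLDA2, a growth-restraining relative of PHLDA1, was at 35.1 to 40.8 FPKM against 21.5 to 24.6 FPKM (0.70 ± 0.074, SE, limma adjusted p = 0.000482). The FOS and PHLDA2 calls held in all 12 fits that omitted a library, and with the GC and length correction they were -0.80 and 0.46 (limma adjusted p = 0.00585 for both). IER3, an immediate early survival gene, averaged 23.5 FPKM against 18.3 FPKM in WT (0.34 ± 0.073, SE, limma adjusted p = 0.0166), a call kept in 8 of the 12 fits and lost with the GC and length correction (0.17, limma adjusted p = 0.186). CCND1, which encodes cyclin D1, averaged 63.9 FPKM against 79.6 FPKM (-0.32 ± 0.086, SE, limma adjusted p = 0.0487), a call kept in 3 of the 12 fits. With the GC and length correction CCND1 was at -0.26 (limma adjusted p = 0.0354). Without the 2 libraries that stand apart it was at -0.39 (limma adjusted p = 0.000533), where 27.8% of all rows passed. With GLUP the median label difference over the list was 0.22, beside -0.0039 over all rows.

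**Figure D4:**
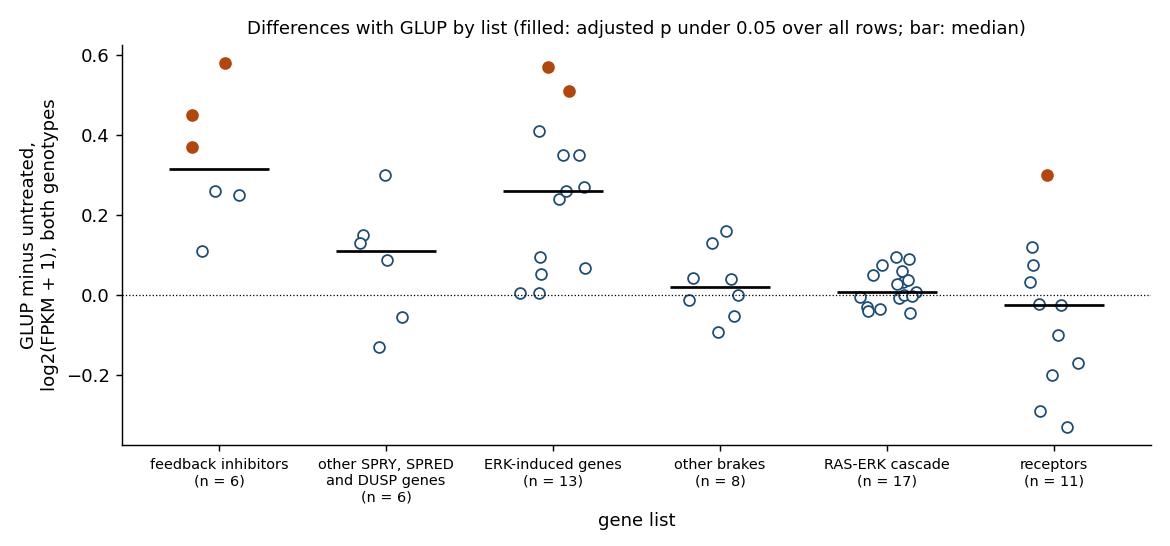
GLUP minus untreated difference in log2(FPKM + 1) over both genotypes (vertical axis) for each tested gene of 6 lists (horizontal axis); filled points passed an adjusted p of 0.05 over all rows and bars are list medians. The members (median 0.31) and the ERK-induced genes (0.26) lay mostly above 0, the cascade (0.0076) and other brakes (0.021) around 0.

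Markers of other cell states were read beside these values. The summed level of the 6 epithelial markers, of which CDH1, KRT8 and KRT7 averaged at least 1 FPKM, was 11 to 12 FPKM in untreated and 9.15 to 10.3 FPKM in GLUP WT libraries, and 12.9 to 16.5 FPKM and 9.88 to 10.9 FPKM under the TEAD4KO label. It was lower in GLUP libraries without overlap in both genotypes, and its part in the member differences was not tested. Gene by gene, 0 of 3 markers tested passed for GLUP over both genotypes, where 0.258% of all rows did. The limma adjusted p was 0.203 for CDH1, 0.318 for KRT8 and 0.931 for KRT7. KRT7 was at 0.17 ± 0.28 (SE) with GLUP in WT. The summed fibroblast markers were 660 to 692 FPKM untreated and 695 to 754 FPKM with GLUP in WT, and overlapped under the TEAD4KO label (644 to 780 FPKM and 604 to 723 FPKM). In bulk RNA, fewer cells of a kind and less RNA per cell cannot be told apart.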

How the data were processed

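RNA-seq libraries of HGC-27 cells were analysed as FPKM values deposited by the authors, 1 column per library and 1 row per Ensembl gene, without pooling. The authors processed the reads on the Majorbio cloud platform. The submitters' processing notes name HISAT2, Cufflinks, RSEM and hg19 without roles or versions, and the annotation is not given in the sources used here. FPKM depends on the mapped total and on GC and length trends of a library. Low values showed no steps of whole reads, so depth is unknown and precision rests on the spread between libraries. Symbols, lengths and GC content (96.5% of rows) and GRCh37 positions came from GENCODE release 44, and promoters from RefSeq.

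Values were fitted as log2(FPKM + 1) with limma 3.58.1 in R 4.3.3 (4-group model of 12 libraries, eBayes with trend) for the 11225 rows that averaged 1 FPKM or more, in 6 comparisons. A call needed a two-sided Benjamini-Hochberg adjusted p under 0.05 over all rows. Members below the filter were fitted on all 17969 rows above 0. A permutation test of 3 against 3 libraries cannot give a p below 0.1 and was not used. The fit was tested on simulated data.

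The members and lists were chosen with earlier results of these data known. Genes named are all members, TEAD4, up to 4 called genes per list by size of difference, the 5 rows most correlated with the members, and markers. IER3, CCND1, FGFR2 and FGFR3 fell outside this rule and were named after their values were seen. FGFR2 and FGFR3 were not called in any comparison. GRB2, MAPK3, NF1 and CBL were named only as examples of their lists. 1 further cascade gene is not reported here. DUSP14 and PECAM1 were not analysed here. Libraries numbered 14, 15 and 16 had correlations of deviations between genotypes of 0.106, 0.152 and 0.336, all over the limit set for pairing, although the unmatched pairs of 14 and 15 reached 0.134 and 0.116. Those numbered 1, 2 and 3 had -0.0569, 0.203 and -0.0149 and missed it. Printed values come from the model without a block unless a block is named, and the block was an alternative for both treatments. The numbers come from the sample titles. Alternatives were another pseudocount, filter, scaling, variance model, GC and length correction, fold limit, samples in the fit, replicate block and leaving out each library.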

Additional observations from a re-analysis of the deposited data

How the results depend on the processing

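Under all alternatives, 1062 member values were recomputed, and 992 kept their direction and side of the threshold, 35 lost the threshold, 6 gained it and 29 changed sign. Most of these values were not called in the main fit and had no call to lose. The 35 losses all fell on SPRY2, IL17RD and ERRFI1 for GLUP over both genotypes. Of the 12 fits that omitted a library, 10, 9 and 8 lost the call of these genes, respectively. For GLUP over both genotypes the 3 members called became 0 with the fold limit of 2, 0 without the filter, 1 with a mean of at least 5 FPKM (2 members tested), and, added after seeing the data, 0 without the filter at a pseudocount of 0.1 and 1 without the 2 libraries that stand apart. Leaving out 1 library gave 0 to 3. Over all alternatives the limma adjusted p ranged from 0.018 to 0.173 for SPRY2, 0.00786 to 0.139 for IL17RD and 0.014 to 0.119 for ERRFI1. For GLUP in WT, array weights gave 3 members called in place of 0 (and 61 rows in place of 1). Without the 2 libraries that stand apart, members called went from 0 to 2 for the label without GLUP and from 0 to 1 with GLUP. In that setting 19.9% and 27.8% of all rows passed, in place of 5.42% and 5.84%. The causes were not tested.

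Values near 0 changed sign. The interaction of SPRY2 was 0.015 with quantile normalization. SPRED1 under the label with GLUP was 0.0068 with the GC and length correction, with or without the replicate block. Without the 2 libraries that stand apart, PHLDA1 was -0.0093 for the label without GLUP, SPRY2 was -0.012 for the label with GLUP and SPRED1 was -0.0064 for the interaction. Leaving out 1 library gave ranges across 0 for the label without GLUP (ERRFI1 -0.054 to 0.15, PHLDA1 -0.016 to 0.19), the label with GLUP (SPRY2 -0.012 to 0.15, SPRED2 -0.20 to 0.0041, SPRY4 -0.27 to 0.034, DUSP6 -0.12 to 0.051), GLUP under the TEAD4KO label (DUSP4 -0.044 to 0.052) and the interaction (SPRY2 -0.13 to 0.030, SPRED1 -0.033 to 0.13, IL17RD -0.082 to 0.19, PHLDA1 -0.043 to 0.17, SPRY4 -0.14 to 0.16).

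With the replicate number as a block, 0 members were called for the label without GLUP, the label with GLUP and the interaction, as without it, and rows called were 849, 1064 and 1 in place of 608, 656 and 1. The block changed no other call of a member. For GLUP against untreated, no paired analysis was possible because these libraries share no replicate numbers. Depth is unknown and limits what can be said of the members under 1 FPKM.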
